A study of Mus musculus with 8 samples.

Results

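The comparison described here sets all spinal cord cells against all brain cells at day 14 of experimental autoimmune encephalomyelitis (EAE), in which immunisation primes T cells against myelin and which serves as a model of multiple sclerosis. The cells were conventional CD4 T cells of Foxp3-Cre-YFP mice, sorted as CD44+ (antigen-experienced), TCRβ+, CD11b- and negative for the YFP that reports Foxp3, from enzymatically digested spinal cord and from brain freed of its meninges. Every mouse in either group carried the Foxp3-Cre-YFP allele and had been immunised. A barcode was kept if it held 500 genes or more and no more than 10% of its UMIs were mitochondrial (UMIs are unique molecular identifiers, each standing for 1 captured RNA molecule). This left 9270 of 9482 barcodes in spinal cord and 10313 of 10742 in brain, in all 19583 of the 21551 cells kept by this rule in the 4 RNA libraries of the series. The other libraries, from day 50, held 1620 spinal cord and 348 brain cells. Each tissue and day was 1 library, and the labels give neither the number of mice pooled in it nor their strain, age or sex. There were therefore no replicates and no test across animals, and the 95% intervals below cover counting error only.

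CD4 T cells enter the central nervous system in EAE through its vessels and meninges, meet antigen again on local presenting cells and release cytokines that drive inflammation. Type I interferons switch on a set of antiviral genes through a complex that holds IRF9 and binds the interferon-stimulated response element in promoters, whereas interferon gamma acts mainly through other promoter elements and drives antigen presentation and guanylate-binding GTPases. Immediate early genes such as Fos and Junb are transcribed within minutes of receptor signals or cell stress, and many encode short-lived transcription factors. Cells that stay in a tissue lower the factor KLF2 and its targets for exit and lymph node homing, and raise surface molecules such as CD69 and CXCR6.

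The type I interferon genes and the genes of G2 and mitosis differed as groups, so promoters of members that were lower in spinal cord are shown with the motif each group is known for. The sequences are RefSeq promoters on GRCm38.p6, 300 bases from 250 before to 50 after the gene's start, printed 5′ to 3′ on the gene's own strand. For the first group, capitals mark the interferon-stimulated response element, searched as GAAA, any 2 bases and GAAA on either strand, where neighbouring matches may overlap; the reverse strand reads TTTC, any 2 bases and TTTC.
Isg15 (chr4:156200769-156201068, minus strand): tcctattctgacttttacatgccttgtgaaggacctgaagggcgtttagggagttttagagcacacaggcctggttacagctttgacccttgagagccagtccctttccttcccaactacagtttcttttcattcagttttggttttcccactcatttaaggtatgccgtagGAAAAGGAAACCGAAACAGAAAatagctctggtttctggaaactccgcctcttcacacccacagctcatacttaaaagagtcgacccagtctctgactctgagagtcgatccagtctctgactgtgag
Ifit3 (chr19:34583279-34583578, plus strand): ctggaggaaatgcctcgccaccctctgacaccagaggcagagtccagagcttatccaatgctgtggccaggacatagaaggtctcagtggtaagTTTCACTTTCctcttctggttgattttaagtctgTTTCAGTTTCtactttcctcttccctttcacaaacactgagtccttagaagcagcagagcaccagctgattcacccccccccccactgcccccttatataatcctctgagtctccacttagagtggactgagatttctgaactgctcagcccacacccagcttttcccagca
Rsad2 (chr12:26456403-26456702, minus strand): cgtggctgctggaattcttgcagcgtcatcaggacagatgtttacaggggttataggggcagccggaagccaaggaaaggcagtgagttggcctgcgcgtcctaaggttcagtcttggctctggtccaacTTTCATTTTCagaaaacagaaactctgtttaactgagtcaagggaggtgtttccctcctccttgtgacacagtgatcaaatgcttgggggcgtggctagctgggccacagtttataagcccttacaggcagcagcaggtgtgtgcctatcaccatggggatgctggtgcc
The Isg15 window held 3 overlapping matches that began 78, 72 and 66 bases before the start, the Ifit3 window held 2 and the Rsad2 window 1. Isg15 encodes a ubiquitin-like modifier, Ifit3 a protein of the antiviral IFIT complex, and Rsad2 the antiviral enzyme viperin. Promoters were found for 32 of the 40 type I interferon genes compared, and 19 of them (59.4%) held the element, against 3.99% of the 27025 gene symbols with a promoter in the table. The element was not particular to lower genes: 11 of 17 promoters of lower members held it, and 8 of 15 of members not called. In the interferon gamma list, which held no lower gene, 10 of 20 promoters had it. For the mitotic genes, capitals mark the cell cycle homology region, searched as TTTGAA on either strand.
Ube2c (chr2:164769679-164769978, plus strand): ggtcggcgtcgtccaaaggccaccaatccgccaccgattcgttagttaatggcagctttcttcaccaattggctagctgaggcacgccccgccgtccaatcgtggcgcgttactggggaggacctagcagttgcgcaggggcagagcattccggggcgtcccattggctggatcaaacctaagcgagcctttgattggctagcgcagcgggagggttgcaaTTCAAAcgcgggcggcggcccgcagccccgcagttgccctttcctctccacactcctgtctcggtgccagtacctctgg
Ccnb2 (chr9:70421505-70421804, minus strand): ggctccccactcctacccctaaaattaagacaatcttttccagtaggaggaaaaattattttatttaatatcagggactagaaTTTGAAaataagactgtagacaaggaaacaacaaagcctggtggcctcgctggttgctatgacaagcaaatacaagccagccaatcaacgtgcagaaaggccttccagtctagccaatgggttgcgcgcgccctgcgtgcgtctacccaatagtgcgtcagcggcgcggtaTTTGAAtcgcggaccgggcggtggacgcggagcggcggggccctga
Ube2c encodes the ubiquitin-conjugating enzyme of the anaphase-promoting complex, and Ccnb2 encodes cyclin B2. Of 26 promoters found for the 32 genes of G2 and mitosis, 19 (73.1%) held this motif, against 20.2% of all symbols in the table. They were 13 of 16 promoters of lower members and 6 of 10 of members not called. A match describes letters in the window and says nothing of binding in these cells.

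The spinal cord library held 50710551 UMIs and the brain library 47272714. Spinal cord cells were deeper, with a median of 4921 UMIs and 1716.5 genes against 4004 UMIs and 1353 genes in brain. When each cell was thinned to 2000 UMIs, leaving out 142 shallower cells in spinal cord and 1163 in brain, the median cell still held 933 genes against 856. Ribosomal protein genes took 30.8% of UMIs in spinal cord and 34.0% in brain, and mitochondrial genes 2.78% and 2.98%. The libraries shared 34 barcodes, 33 of them among kept cells, and the counts of differing genes given below hardly moved without them (879 higher and 866 lower). Markers followed the sort: a CD3 or T cell receptor UMI was found in 100% of spinal cord cells and 99.96% of brain cells, Foxp3 had 1 and 2 UMIs, and the defining markers Ncr1, Flt3, Cldn5 and Snap25 (natural killer, dendritic, endothelial and neuronal) were at 0 in both libraries. Other members of those lists, some of which T cells also express, were present: Klrb1c had 266 UMIs in spinal cord and 129 in brain and was called higher (0.74), Ly6c1 had 195 and 365 and was called lower (-1.21), and Cd74 had 494 and 473. Monocyte and macrophage markers differed: their sum was 25.6 CPM (a gene's UMIs scaled to a common library total) in spinal cord and 9.79 CPM in brain, with 6 of 8 compared members higher, Apoe at 8.50 against 1.95 CPM and C1qb at 3.04 against 0.740 CPM among them, while Csf1r had 8 and 1 UMIs. The immunoglobulin gene Ighm went the other way, at 19.9 against 31.9 CPM, and the myelin gene Mobp had 68 UMIs in spinal cord and 0 in brain. Their part in the differences below was not tested.

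Of 13866 genes with at least 10 UMIs over both libraries, 887 were higher in spinal cord (6.4%) and 865 lower (6.24%). Every count of called list members at day 14 below is to be read against these shares. A call, here and below, requires a ratio of CPM that differs 1.5-fold or more from that of the median gene, with a 95% interval that does not include equality. The median gene itself stood 0.20 higher in spinal cord on the log2 scale, and all log2 ratios below are relative to it unless stated otherwise. The split between directions depends on that choice: without subtraction 2038 genes were higher and 506 lower, so 80.1% of calls were higher against 50.6% with it. Among genes given as lower below, Jund, Dusp2, Gpr183, Icam1, Ly6c2, Nr4a2, Cd28, Errfi1 and Klf9 were not called without subtraction. Nor were the stress genes Hspa1b, Atf4, Ddit3, Dnajb9 and Herpud1. Other references also moved it, to 65.3% higher when centred on genes at 50 CPM or more and to 70.6% higher when ribosomal and mitochondrial genes were left out of the totals. Among the 2647 genes at 50 CPM or more in at least 1 library, 61 were higher (2.3%), 115 were lower (4.34%) and 93.4% lay within 1.5-fold.

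**Figure D1:**
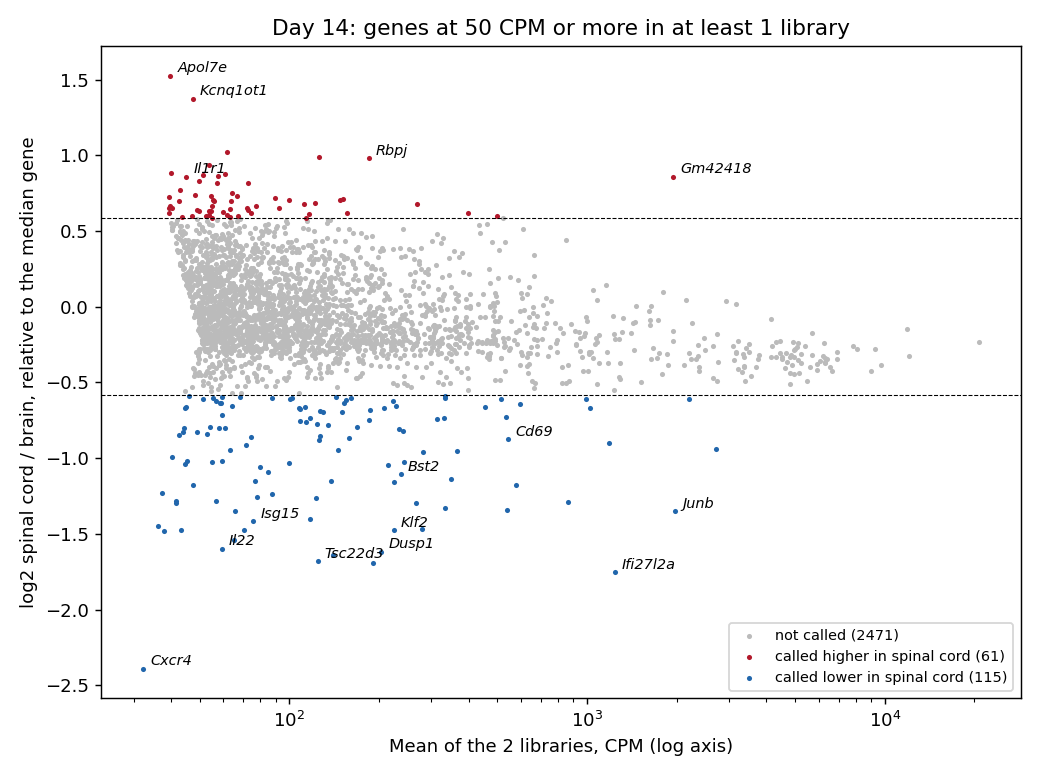
Each point is a gene at 50 CPM or more in at least 1 day 14 library; the x axis is the mean CPM of both libraries (log axis), the y axis the relative log2 ratio of spinal cord over brain, and dashed lines mark 1.5-fold. The 115 lower genes reach -2.39 (Cxcr4), while the 61 higher genes reach 1.53 (Apol7e).

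The 15 genes farthest below the median, by the bound of their interval nearest to 0, were led by genes of chemotaxis, interferon response and acute signalling. Cxcr4, the receptor for CXCL12 (chr1:128588199-128592299), stood at 11.6 CPM in spinal cord and 53.0 CPM in brain, a relative log2 ratio of -2.39 (95% interval -2.52 to -2.26), and was detected in 2.54% against 10.5% of cells at 2000 UMIs. Ifi27l2a (chr12:103433873-103443680), an interferon-inducible gene, stood at 629 against 1849 CPM (-1.75, -1.77 to -1.74). Zfp36, which encodes an mRNA decay factor, stood at 100 against 283 CPM (-1.69), and Tsc22d3, a glucocorticoid-induced gene, at 65.6 against 183 CPM (-1.68). Ctla4, an inhibitory receptor gene, stood at 75.5 against 205 CPM (-1.64). The others were Dusp1, Il22, Csrnp1, Klf2, Gadd45b, Vps37b, Dusp10, Pim3, Isg15 and Rgs2, between -1.62 and -1.40.

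The 15 genes farthest above the median made a less even set and differed less. Apol7e, of the apolipoprotein L family, stood at 61.1 CPM in spinal cord and 18.5 CPM in brain (1.53, 1.42 to 1.64), and Kcnq1ot1, a long noncoding RNA of an imprinted locus, at 71.0 against 23.9 CPM (1.37). Rbpj, the DNA-binding effector of Notch signalling (chr5:53555779-53657445), stood at 256 against 113 CPM (0.98, 0.93 to 1.03) and was detected in 30.2% against 15.8% of cells. Hist1h1e, a linker histone, stood at 174 against 76.4 CPM (0.99), and Il1r1, the interleukin 1 receptor, at 60.9 against 29.3 CPM (0.86). Gm42418, a locus that overlaps ribosomal RNA sequence, stood at 2622 against 1260 CPM (0.86). Among the others, Mdfic, Setd5, Map4, Cmip, Tnik, Camk2n1 and Gimap8 lay between 0.82 and 1.02.

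Type I interferon-stimulated genes were lower in spinal cord. Of 40 members compared, 23 were called lower and 0 higher, against 6.24% lower and 6.4% higher over all genes, and their median was -0.64. Its lowest member, Ifi44, rested on 10 UMIs in spinal cord and 57 in brain (-2.81), and antiviral effectors with more UMIs followed. Isg15 stood at 45.4 CPM in spinal cord and 106 CPM in brain (-1.42, -1.49 to -1.35), Ifit3 at 14.3 against 36.3 CPM (-1.55) and Rsad2 at 4.77 against 12.4 CPM (-1.57). Usp18, which limits interferon signalling, stood at 3.87 against 9.14 CPM (-1.44), and Irf7, which amplifies it, at 43.1 against 76.0 CPM (-1.02). Bst2, which encodes the virus-tethering protein tetherin, stood at 165 against 309 CPM (-1.11). Among members that were not called, Stat2 stood at 10.4 against 10.0 CPM (-0.14), Irf9 at 52.0 against 45.8 CPM (-0.02), and the RNA sensor Ifih1 at 25.02 against 17.56 CPM (0.31). The 17 members that were not called ranged over several roles, such as the exonuclease gene Isg20 (-0.27) and the helicase-domain sensor Ifih1, while the related sensor gene Dhx58 was lower (-1.15). Ifi27l2a was both detected in fewer cells, 36.2% (35.2 to 37.2) against 62.3% (61.3 to 63.3) at 2000 UMIs, and lower in cells that held it, at 3.67 against 6.20 UMIs per positive cell. Isg15 was detected in 5.98% against 13.1% of cells, with 1.55 against 1.62 UMIs per positive cell. Summed over the list, the median cell held 4 UMIs in spinal cord and 6 in brain, and the 10% of cells richest in the list held at least 12 and 21.

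Genes of the interferon gamma response and antigen presentation did not move with them. Of 27 compared, 0 were lower and 3 higher, with a median of -0.04 that reads 0.16 without centring. The 3 were the immunity-related GTPase genes Tgtp2 at 19.0 against 6.37 CPM (1.38), Tgtp1 at 9.58 against 3.47 CPM (1.27) and Irgm2 at 8.95 against 4.29 CPM (0.86); Tgtp1 and Tgtp2 are near-identical copies, so reads could be split between them. The MHC class I genes H2-K1 and H2-D1 stood at -0.25 and -0.40, B2m at -0.42, and the guanylate-binding protein genes Gbp2 to Gbp9 between -0.34 and 0.25. Ifng itself stood at 402 against 414 CPM (-0.24), below the 1.5-fold limit, and was detected in 27.9% against 28.4% of cells. Cxcl10, a chemokine gene induced by either interferon, stood at 4.16 against 25.6 CPM (-2.82, -3.04 to -2.61).

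**Figure D2:**
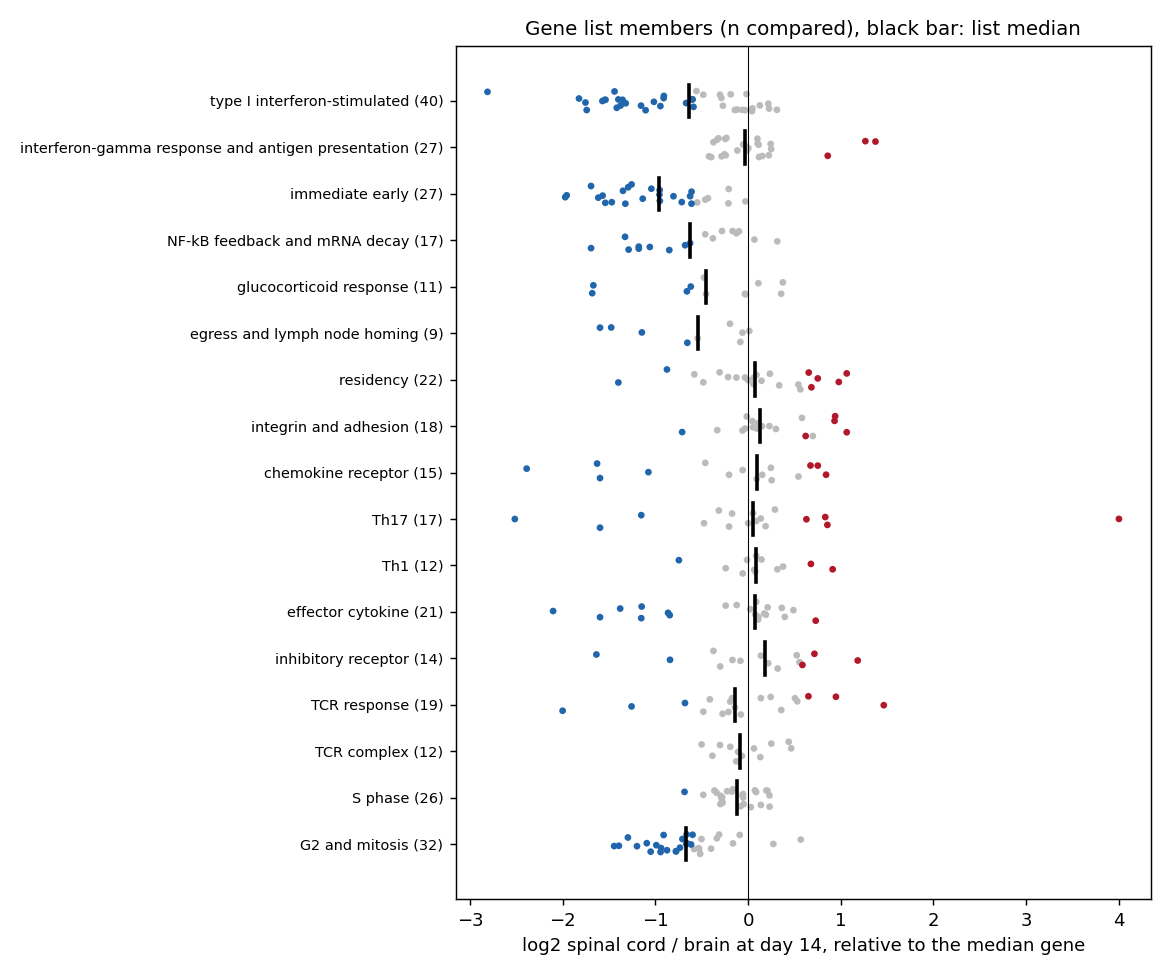
Relative log2 ratio of spinal cord over brain at day 14 (x axis) for each compared member of 17 gene lists; red points were called higher, blue points lower, grey points neither, and the black bar is the list's median. The type I interferon (-0.64), immediate early (-0.96), NF-kB feedback (-0.63) and G2 and mitosis (-0.66) lists have medians below -0.6, while interferon gamma, residency and TCR complex members centre near 0.

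Immediate early genes had the lowest median of the 45 lists examined, at -0.96. All 27 compared members had a ratio below 0, with 21 called lower. Zfp36, Maff (5.58 against 19.1 CPM, -1.97) and Atf3 (4.02 against 13.6 CPM, -1.96) led, and Dusp1, a phosphatase that switches off MAP kinases, stood at 111 against 295 CPM (-1.62). Among the AP-1 subunits, Junb stood at 1229 CPM in spinal cord and 2728 CPM in brain (-1.35), Fos at 240 against 460 CPM (-1.14), Jund at 853 against 1133 CPM (-0.61) and Fosb at 127 against 149 CPM (-0.43, not called). Jun (403 against 406 CPM, -0.21) and Egr1 (105 against 106 CPM, -0.21) were not called. The list therefore holds large differences and members that hardly differed side by side.

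The difference in immediate early genes lay in most cells. At 2000 UMIs, the median cell held 13 UMIs of the list in spinal cord and 21 in brain, the poorest 10% of cells at most 5 and 9, and the richest 10% at least 25 and 38. The richest 5% of cells held 12.3% and 11.7% of the list's UMIs, so the UMIs were spread over cells to a like degree. Fos was detected in 28.7% against 44.9% of cells and Zfp36 in 17.4% against 37.1%. Tissues were digested by enzymes before sorting, and the labels give no digestion time by tissue; a part of handling in these genes was not tested.

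**Figure D3:**
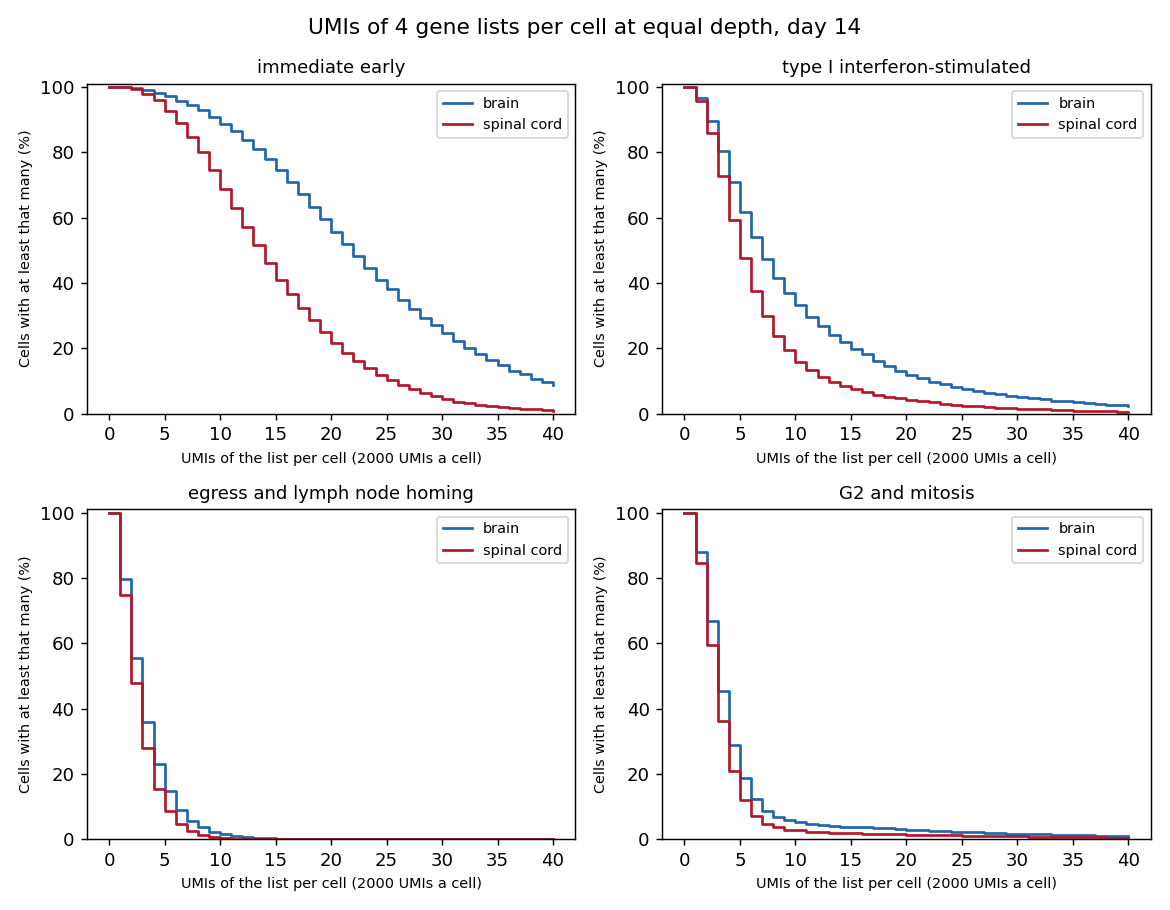
Share of cells (y axis, %) with at least a given number of UMIs of a list (x axis) after thinning each cell to 2000 UMIs, for 9150 brain and 9128 spinal cord cells. The immediate early curves lie apart over nearly the whole range (medians 21 and 13), the type I interferon curves most at higher UMI numbers (90th percentiles 21 and 12), and those of egress and of G2 and mitosis lie closer.

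Feedback genes of the same kind were lower too. Of 17 NF-kB feedback and mRNA decay genes, 9 were lower and 0 higher (median -0.63). Nfkbia, the inhibitor IκBα, stood at 551 against 1172 CPM (-1.29), and Tnfaip3, the inhibitor A20, at 209 against 457 CPM (-1.33), whereas the subunit gene Nfkb1 stood at 147 against 103 CPM (0.32) and Rel at 90.3 against 108 CPM (-0.46), neither called. Of 11 glucocorticoid response genes 4 were lower and 0 higher (median -0.45): Tsc22d3, Per1 (17.2 against 47.6 CPM, -1.67), Errfi1 and Klf9, of which the last 2 were not called without centring, while Fkbp5, a common target of the glucocorticoid receptor, stood at 51.3 against 41.4 CPM (0.11). Of 10 dual-specificity phosphatase genes 5 were lower, and 1 was higher: Dusp6, a phosphatase of ERK, at 35.9 against 18.7 CPM (0.74). Among 7 SOCS and PIM genes, Pim1 (-1.34), Pim3 (-1.48) and Socs3 (-1.35) were lower and Socs2 (0.64) was higher. Zfp36, Dusp1, Dusp2 and Dusp5 stand in more than 1 of these lists.

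Genes of tissue exit and lymph node homing were lower in part. Of 9 compared, 4 were lower and 0 higher (median -0.54). Klf2, the factor that maintains the exit programme, stood at 131 CPM in spinal cord and 317 CPM in brain (-1.48, -1.52 to -1.44) and was detected in 20.1% against 32.7% of cells. Ccr7, the lymph node homing receptor, stood at 6.82 against 17.98 CPM (-1.60), and Gpr183, an oxysterol receptor, at 192 against 263 CPM (-0.66). S1pr1, the exit receptor and a target of KLF2, was not called, at 86.7 against 80.0 CPM (-0.08, -0.15 to -0.02). Among memory and stem-like factors, 2 of 12 were lower, Eomes (-1.29) and Slamf6 (-0.83), and 0 were higher. Over all genes 6.24% were lower and 6.4% higher. Tcf7 stood at -0.47 and Il7r at -0.06.

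Residency genes showed no shared direction, with 5 higher and 2 lower of 22 and a median of 0.08. The counts in this paragraph stand against 6.4% higher and 6.24% lower over all genes. Itga1, the α1 integrin that binds collagen (chr13:114958079-115101964), stood at 14.4 against 6.01 CPM (1.06). P2rx7, the ATP receptor, stood at 51.0 against 28.2 CPM (0.65, not called when centred by gene span). The chemokine receptor gene Ccr8 stood at 7.57 against 3.91 CPM (0.75), and Rbpj and Inpp4b were the other higher members. Cd69 (417 against 666 CPM, -0.88) and Rgs2 (71.1 against 163 CPM, -1.40) were lower. Cxcr6 stood at 580 against 346 CPM (0.54), short of the limit relative to the median gene but past it without centring (0.74), and was detected in 58.8% (57.8 to 59.8) against 40.4% (39.4 to 41.4) of cells. Itgae, the αE integrin, was low in both libraries at 2.21 and 1.97 CPM. Among 18 integrin and adhesion genes, 4 were higher, Itga1, Itga2 (0.94), Itga3 (0.93) and their shared partner Itgb1 (509 against 288 CPM, 0.62), and Icam1 was lower (-0.71). Of 15 chemokine receptor genes 3 were higher (Cx3cr1, Ccr8 and Ccr1) and 4 lower (Cxcr4, Ccrl2, Ccr7 and Cxcr5). Cx3cr1 stood at 8.14 against 3.96 CPM (0.84), and as a microglial marker it moved with the myeloid markers above.

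**Figure D4:**
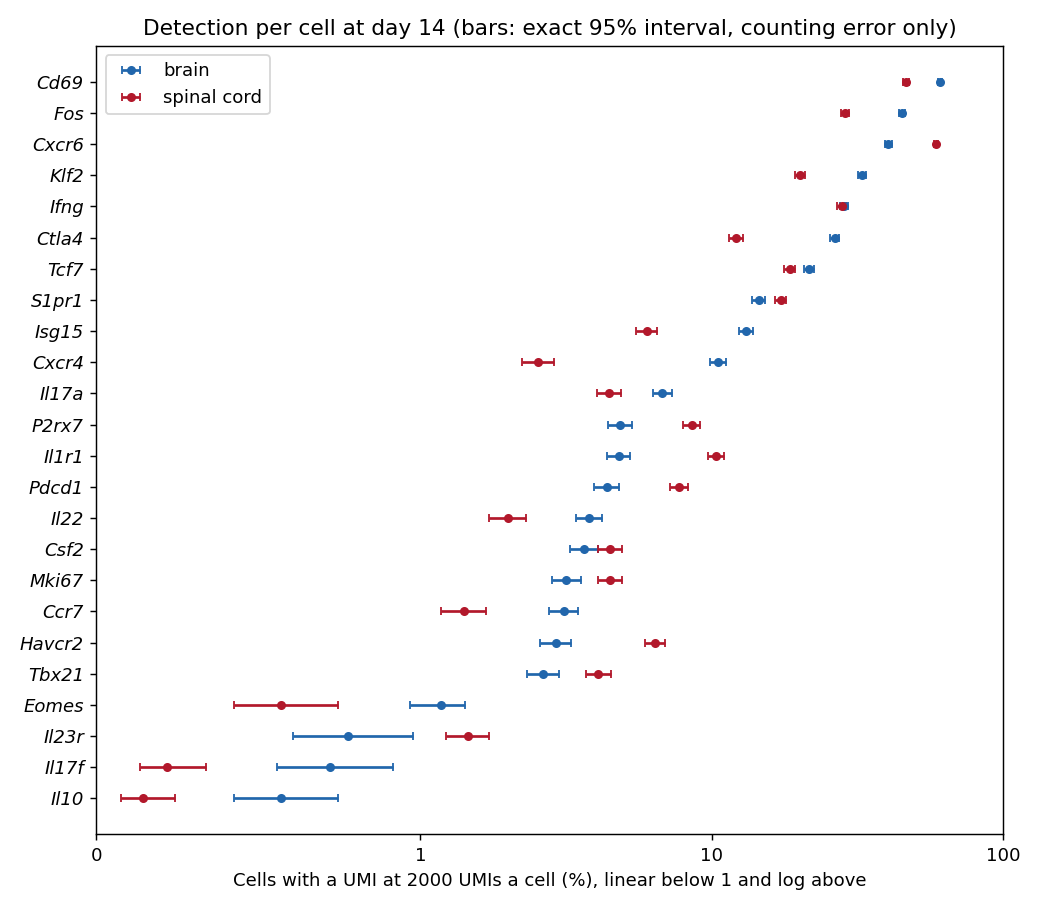
Share of cells with a UMI at 2000 UMIs a cell (x axis, %, linear below 1 and log above) for 24 genes in brain (blue) and spinal cord (red), with exact 95% intervals for counting error. Cxcr6, Il1r1, Havcr2 and P2rx7 were detected in more spinal cord cells, and Cd69, Fos, Klf2, Ctla4, Cxcr4 and Il22 in more brain cells.

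Shares of cells with a UMI count detection, not expression, and the level of free RNA is unknown, since the sort left no other cell type in number to measure it in. Thinning changed some shares: Cd4 was detected in 64.2% against 44.0% of cells at full depth and in 35.1% against 25.1% at 2000 UMIs.

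Surface protein and transcript went apart for CD69. The median cell bound 9 antibody UMIs of CD69 in spinal cord and 4 in brain, and the antibody's total per RNA UMI was 2.11-fold higher in spinal cord, while the transcript's, on the same uncentred scale, was 0.626-fold. For P2X7 the medians were 9 and 5, and the antibody ratio of 1.76-fold stood beside 1.81-fold for the transcript. For CXCR6 the medians were 22 and 13, with ratios of 1.06-fold for antibody and 1.67-fold for transcript. Antibody counts were not scaled between libraries, so the antibody ratios hold any difference in staining. Within spinal cord, cells with a Cd69 UMI had a median CD69 count of 10 and cells without 8, against 25 and 7 for P2X7 and 26 and 9 for CXCR6.

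Among Th17 genes, the receptor genes Il23r and Il1r1 were higher, and the cytokine genes Il17a, Il17f and Il22 were lower. Of 17 Th17 genes, 4 were higher, 3 lower and 10 not called (median 0.05). Il23r, which encodes the interleukin 23 receptor, stood at 7.26 against 4.08 CPM (0.63, not called when centred by gene span), and Il1r1 was higher as given above. Il17a stood at 94.1 against 182 CPM (-1.15) and was detected in 4.44% against 6.78% of cells, Il17f at 3.63 against 18.1 CPM (-2.52) and Il22 at 32.7 against 86.1 CPM (-1.60). Part of this rested on few cells: 2 cells held 62.1% of the Il17f UMIs and 22.9% of the Il22 UMIs in brain. Without the 2 richest cells of each gene, Il17f stood at -1.71 and Il22 at -1.41, and both were still called lower. Of 4 gamma-delta T cell markers compared, 1 was called lower: Trdc, with 79 UMIs in spinal cord and 238 in brain (-1.89). The others were not called and went both ways: Tcrg-C1 stood at 0.46 (188 and 111 UMIs), Tcrg-C2 at -0.53 and Tcrg-C4 at 1.02 (10 and 4 UMIs). The sum of the list was 6.61 against 8.91 CPM, with no marker at 0 in either library. The part of gamma-delta T cells in the cytokine differences was not tested. Ccl20, which encodes a Th17-associated chemokine and was also higher, rested on 158 UMIs in spinal cord, 72.8% of them in 2 cells, against 8 UMIs in brain. The interleukin 1 and 18 receptor family had 2 of 8 members higher and 0 lower, Il1r1 and Il18rap (145 against 78.9 CPM, 0.68), and a median of 0.35.

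Th1 genes and the other cytokines held calls in either direction. Of 12 Th1 genes 2 were higher, Il12rb2, a chain of the interleukin 12 receptor (26.0 against 12.04 CPM, 0.91), and Il18rap. Ly6c2 was the 1 lower gene (-0.75), a share near the 6.24% of all genes. Tbx21, which encodes T-bet, stood at 22.3 against 14.9 CPM (0.38, not called). Of 21 effector cytokine genes, 7 were lower and 1 higher (median 0.08). Il10 stood at 0.927 against 3.47 CPM (-2.10), Areg at 16.6 against 37.7 CPM (-1.38) and Il2 at 24.0 against 37.5 CPM (-0.85), and the higher gene was Lta, lymphotoxin α, at 87.7 against 46.0 CPM (0.73). Csf2, the gene of the EAE effector cytokine GM-CSF, stood at 55.0 against 47.1 CPM (0.02) and Tnf at 124 against 82.2 CPM (0.40), neither called.

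Inhibitory receptor genes were mixed, and the counts in this paragraph stand against 6.4% higher and 6.24% lower over all genes. Of 14 compared, 3 were higher: Havcr2, which encodes TIM-3, at 47.0 against 18.02 CPM (1.18, 1.07 to 1.30), Entpd1, the ectonucleotidase CD39, at 18.004 against 9.54 CPM (0.72), and Lag3 (0.59). Ctla4 and Tox (-0.84) were lower, and Pdcd1, PD-1, at 50.5 against 29.9 CPM (0.56), did not reach the limit, which it passed without centring (0.76). Of 19 genes of the T cell receptor response 3 were higher and 3 lower. Egr2 stood at 31.8 against 10.0 CPM (1.46, 1.32 to 1.62), Egr3 at 39.99 against 18.04 CPM (0.95) and Il2ra at 52.1 against 28.9 CPM (0.65), while Nr4a1, the gene of NUR77, stood at 50.6 against 105 CPM (-1.26) and Nr4a2 at 32.5 against 45.3 CPM (-0.68); the other lower gene, Spry2, had 4 and 13 UMIs. Targets of the same receptor therefore stood on either side of the median. Of 14 costimulatory genes 3 were higher (Tnfsf14, Slamf1 and Cd226) and 3 lower (Cd27 at -1.21, Tnfsf8 at -1.15 and Cd28 at -0.60). The 12 genes of the T cell receptor complex and its proximal kinases held 0 calls, with a range of -0.50 (Trbc1) to 0.47 (Cd4).

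Genes of G2 and mitosis were lower, while genes of S phase were not. Of 32 members of the first list 20 were lower and 0 higher (median -0.66; 11 lower and 1 higher without centring), and of 26 of the second 1 was lower and 0 higher (median -0.12, which reads 0.077 without centring). Ube2c stood at 21.6 CPM in spinal cord and 51.1 CPM in brain (-1.45), Ccnb2 at 11.3 against 25.8 CPM (-1.39) and Birc5, survivin, at 26.4 against 56.6 CPM (-1.30). Mki67, the proliferation marker, stood at 42.7 against 30.8 CPM (0.27) and Top2a at -0.09, and neither was called. At 2000 UMIs, 2.75% of spinal cord cells (2.42 to 3.11) held at least 10 UMIs of the G2 and mitosis list against 5.21% in brain (4.77 to 5.69). At least 5 UMIs of the S phase list were held by 4.75% (4.33 to 5.21) and 4.47% (4.06 to 4.91). Cells with at least 10 UMIs of both lists added together numbered 436 in spinal cord and 668 in brain. Without them the median of G2 and mitosis was -0.20. This filter removes cells by the genes that the median scores, so part of the move toward 0 is built in. The lower members were also shorter genes: the 20 spanned a median of 8068 bases and the 12 others 31766 bases.

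The ratio followed gene span over the whole table. Among 2601 genes at 50 CPM or more with a span in the annotation, Spearman's rho between span and ratio was 0.53 at day 14, and it was 0.0036 for the same genes at day 50. These genes share the libraries, and the value is a description. The shortest of 4 equal classes of span (up to 6295 bases) had a median ratio of -0.22 with 10.0% of genes lower and 0.769% higher, and the longest class (from 40360 bases) a median of 0.20 with 0.922% lower and 6.14% higher. Short genes set some lists apart: 18 of 27 immediate early genes and 77 of 82 ribosomal protein genes lay in the shortest class, but 7 of 40 type I interferon genes did. When each gene was centred on its own of 10 classes of gene span, the medians were -0.84 for immediate early, -0.70 for type I interferon, -0.59 for egress and -0.69 for G2 and mitosis genes, and residency was at 0.01. Some long genes given here as higher were then not called, among them P2rx7, Itgb1, Il2ra, Entpd1, Il23r and Ahnak. The immediate early list then held 19 lower genes. Span includes introns and is not transcript length; whether unspliced RNA was counted is not given in the sources used here, and its part was not tested.

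Ribosomal protein genes shared a small, even difference. All 82 compared had a ratio below 0, from -0.51 to -0.02 with a median of -0.34, and 0 were called; centred within span, the median was -0.19. Nuclear respiratory chain genes had a median of -0.22 with 1 of 80 lower and 0 higher, and the proteasome a median of -0.10 with 0 of 37 called, a sign that turns without centring (0.10). Of 16 long noncoding RNAs 9 were lower and 1 higher. Host transcripts of small nucleolar RNAs made up 8 of the 9, among them Snhg1 at 122 against 194 CPM (-0.87) and Snhg15 at 15.2 against 31.9 CPM (-1.27), and Kcnq1ot1 was the higher one. Glycolysis genes lay close to the median of all genes (0.13). The lactate exporter Slc16a3 was the 1 called of 17, at 20.4 against 10.3 CPM (0.78), a share near the 6.4% of all genes.

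**Figure D5:**
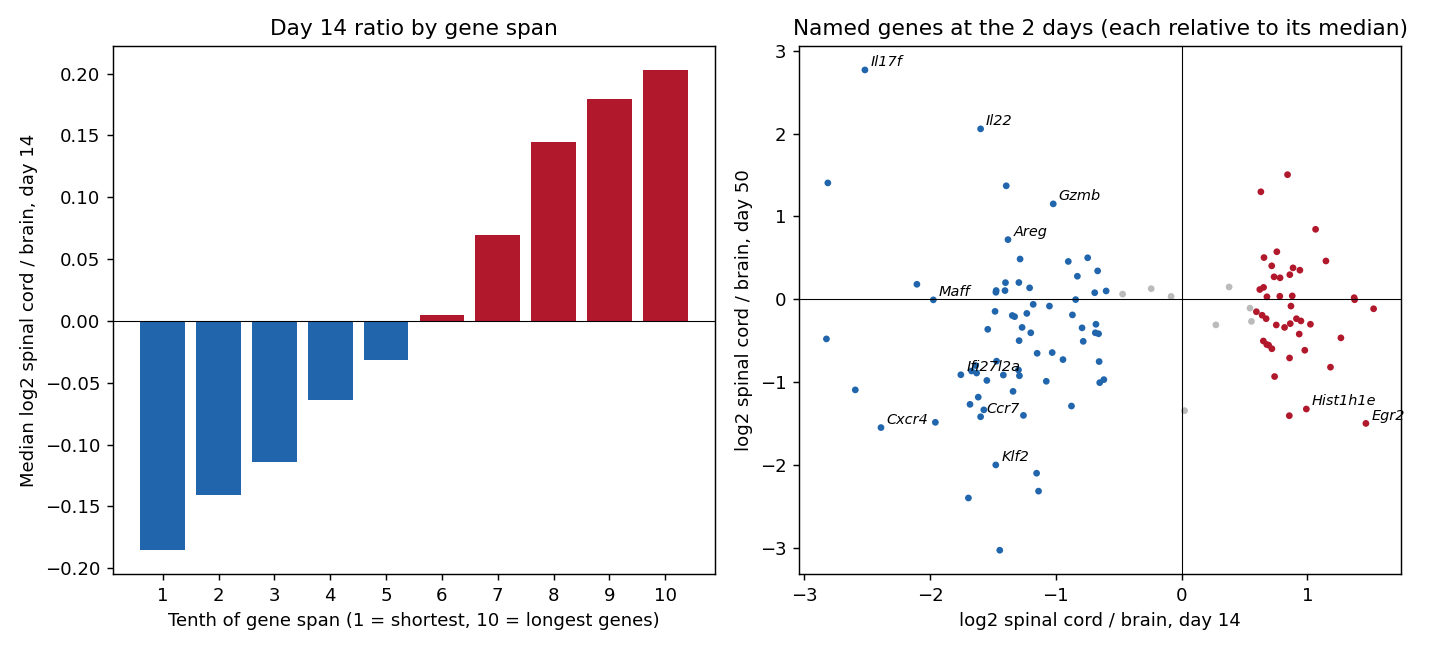
Left: median relative log2 ratio of spinal cord over brain at day 14 (y axis) for genes in each of 10 equal classes of gene span, from -0.19 in the shortest to 0.20 in the longest. Right: relative log2 ratio of the named genes at day 14 (x axis) and day 50 (y axis), coloured by the day 14 call; Cxcr4 and Klf2 are lower at either day, and Il17f, Il22, Gzmb and Areg lie on opposite sides.

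The day 50 libraries gave the same contrast in other cells, at lower depth. Of 10308 genes compared there, 231 were higher (2.24%) and 491 lower (4.76%). Of the 115 genes at 50 CPM or more that were lower at day 14, 86 (74.8%) had a ratio below 0 at day 50, 34 were called lower and 2 higher, against 46.6% below 0 among the genes at that level that were not called at day 14. Of the 61 that were higher at day 14, 27 (44.3%) lay above 0 at day 50, 2 were called higher and 7 lower, against 53.4% above 0 of the genes not called. By list, 16 of 27 immediate early genes were lower at day 50 (median -0.71), 9 of 38 type I interferon genes (-0.33) and 4 of 9 egress genes (-0.62), with 0 higher in these lists, and 11 of 28 genes of G2 and mitosis were lower (-0.84). Cxcr4 stood at -1.55, Klf2 at -2.00, Zfp36 at -2.40 and Ifi27l2a at -0.91, all called lower, and Itga1 at 0.85 was called higher.

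The tissues differed in the share of Cxcr6-positive cells, so the contrast was repeated inside each class at 2000 UMIs a cell, an alternative chosen after the data were seen. Of spinal cord cells 5369 held a Cxcr6 UMI and 3759 did not, and of brain cells 3696 and 5454. The median of immediate early genes was -0.96 in cells with a Cxcr6 UMI and -0.97 in cells without, and that of type I interferon genes -0.75 and -0.57. Klf2 stood at -1.02 and -1.34, Cxcr4 at -2.21 and -2.35, and Ctla4 at -1.70 and -1.67. Egress genes had medians of -0.19 and -0.27 in the classes against -0.40 over all cells at the same depth. Havcr2 stood at 0.79 and 1.45, Itga1 at 0.54 and 1.0, and Il17a at -1.98 and -0.72. A cell without a Cxcr6 UMI at this depth may still express the gene.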

How the data were processed

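Single-cell RNA and antibody UMIs were measured in 1 library per tissue and day. The authors deposited unnormalised UMI counts for each gene and barcode, per the file headers, made by the authors with Cell Ranger 6.1.1 on mm10, per the submitters' processing notes. Antibody features were read by their identifiers (CD69, P2X7R, CXCR6), since the names of 2 of the 3 differ. No doublet caller was run; cells of over 15000 UMIs numbered 67 in spinal cord and 101 in brain. Features that share a symbol were summed, giving 32245 symbols from 32285 rows, and Mx1 and Norad were unmatched.

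After the cell filter (500 genes or more, no more than 10% mitochondrial UMIs), counts were summed per library and scaled to CPM (Python 3.11.15, numpy 2.4.6, scipy 1.17.1, pandas 2.3.3), and log2 ratios were centred on the median of compared genes. Ratio intervals are exact conditional binomial, shares exact Clopper-Pearson, at 95%, and no p-value was computed. A count of 0 in a library allows up to 3 counts, 0.0592 CPM in spinal cord and 0.0635 CPM in brain. Detection used cells thinned to 2000 UMIs (seed 1). TMM factors came from edgeR 4.0.16. The script was tested on simulated data.

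The named genes were the 15 higher and 15 lower whose interval lay farthest from 0 at 50 CPM or more, up to 4 called members of each list, and a set of focal genes; further list members were named as examples with their values in view. Genes and lists were chosen with earlier results of these data known. Some genes are not reported here. Transcript length was planned, but the RefSeq table of GRCm38.p6 gives gene span, which was used instead. Promoters were matched by symbol for 73.9% of compared genes, so shares were set against all promoters in the table. Of the alternative settings, 18 were set out at the start and 5 were added after the data were seen.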

Additional observations from a re-analysis of the deposited data

Results flagged for a closer look

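The genes here, taken from the lists, markers and genes named above, were called in opposite directions at day 14 and day 50 under the same contrast of spinal cord over brain. With 1 library per tissue and day the difference between days was not tested, and the day 50 brain library is shallow, so UMI counts are given.

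Of the 551 genes that were lower in spinal cord at day 14 and compared at day 50, 20 were higher at day 50. Over all genes compared at day 50, 2.24% were higher. Of the 20, those of the lists and markers follow. Il22, a Th17 cytokine gene, stood at -1.60 at day 14 and at 2.06 at day 50, when it had 132 UMIs in spinal cord and 6 in brain. Il17f, a further Th17 cytokine gene, stood at -2.52 at day 14 and at 2.77 at day 50, when it had 108 UMIs in spinal cord and 3 in brain. The related gene Il17a, with more UMIs, did not turn. It was called lower at day 14 (-1.15) and at day 50 (-2.10), when it had 732 UMIs in spinal cord and 592 in brain. Areg, which encodes amphiregulin, stood at -1.38 at day 14 and at 0.72 at day 50, when it had 244 UMIs in spinal cord and 28 in brain. Gzmb, which encodes granzyme B, stood at -1.02 at day 14 and at 1.15 at day 50, when it had 188 UMIs in spinal cord and 16 in brain. Il4, the Th2 cytokine gene, had 9 UMIs in spinal cord and 38 in brain at day 14 (-2.38), and at day 50 it had 36 and 0, at least 1.18 higher on the log2 scale when the brain library is set to the floor of 3 counts. At day 14, 2 brain cells held 62.1% of the Il17f and 22.9% of the Il22 UMIs, and both stayed lower at day 14 without the 2 richest cells of each gene (-1.71 and -1.41). The gamma-delta T cell marker Trdc turned the same way, from -1.89 at day 14 to 2.68 at day 50, when it had 34 UMIs in spinal cord and 1 in brain. Tcrg-C1, of the same list, went the other way, at 3.71 against 2.35 CPM at day 14 and 7.07 against 10.2 CPM at day 50. Tcrg-C2 stood at 1.14 against 1.44 CPM and then 5.10 against 1.70 CPM, and Tcrg-C4 was above brain at either day. Ly6c1, a marker of endothelial cells that T cells also express, went from -1.21 to 1.14, with 93 and 8 UMIs at day 50. The part of such markers in these results was not tested.

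Genes higher in spinal cord at day 14 and lower at day 50 numbered 32 of the 537 higher genes compared at day 50. Over all genes compared at day 50, 4.76% were lower. Of the 32, those of the lists and named genes that can be reported follow. Il1r1, the interleukin 1 receptor, stood at 0.86 at day 14 and at -1.40 at day 50, when it had 48 UMIs in spinal cord and 24 in brain. Egr2, a factor induced by the T cell receptor, stood at 1.46 at day 14 and at -1.50 at day 50, when it had 30 UMIs in spinal cord and 16 in brain. Rbpj, the effector of Notch signalling, stood at 0.98 at day 14 and at -0.61 at day 50, when it had 515 UMIs in spinal cord and 149 in brain. Dusp6, a phosphatase of ERK, stood at 0.74 at day 14 and at -0.93 at day 50, when it had 172 UMIs in spinal cord and 62 in brain. Hist1h1e, a linker histone, stood at 0.99 at day 14 and at -1.32 at day 50, when it had 203 UMIs in spinal cord and 96 in brain. Gm42418, the locus that overlaps ribosomal RNA, stood at 0.86 at day 14 and at -0.71 at day 50, when it had 8100 UMIs in spinal cord and 2500 in brain. Lta, which encodes lymphotoxin α, went from 0.73 to -1.29, with 115 UMIs in spinal cord and 53 in brain at day 50. Bcl6, the factor of follicular helper cells, went from 0.60 to -1.67, with 25 UMIs in spinal cord and 15 in brain at day 50. Igfbp7, which encodes a secreted binding protein, went from 0.67 to -1.36, with 146 UMIs in spinal cord and 71 in brain at day 50. Ly6g5b, of the Ly6 family, went from 0.70 to -0.92, with 56 UMIs in spinal cord and 20 in brain at day 50. Hist2h2ac, a clustered histone gene, went from 0.95 to -1.61, with 26 UMIs in spinal cord and 15 in brain at day 50.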

How the results depend on the processing

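The counts of 887 higher and 865 lower genes stayed within 1.5 times under most alternatives. A fold limit of 2 gave 280 and 414, which follows from the stricter limit. The mean of per-cell CPM, called by fold alone, gave 1446 and 1417, and no centring gave 2038 and 506. Totals without ribosomal and mitochondrial genes gave 1504 higher. Within cells with a Cxcr6 UMI 533 genes were lower and within cells without one 576, from fewer cells and UMIs. Over the alternatives run, the list medians ranged from -1.04 to -0.76 for immediate early and -0.75 to -0.44 for type I interferon genes. They ranged from -0.63 to -0.19 for egress and -0.09 to 0.28 for residency genes. Of these lists only residency changed sign, in cells with a Cxcr6 UMI and without cycling cells. Cycling cells were those with at least 3 UMIs of the S phase and the G2 and mitosis lists added together, after thinning. They made up 61.8% of thinned spinal cord cells and 66.4% of thinned brain cells, so this setting left out most cells. Without centring 12 of 45 list medians turned positive, among them S phase (0.077), cholesterol synthesis (0.085), heat shock (0.021), interferon gamma (0.16) and the proteasome (0.10), with TCR complex (0.11), TCR response (0.057), costimulatory (0.16), cytotoxic (0.020), memory (0.15), unfolded protein (0.12) and lipid handling (0.20) genes. With totals free of ribosomal and mitochondrial genes 8 did, the proteasome (0.024) among them. Of the named genes reported here, 12 lost their call without centring and 16 with centring by gene span, while the direction held for each of them. Detection shares of the 24 genes shown kept their direction at 1000 and 3000 UMIs, apart from shares that differed by under 1 percentage point, which were not judged. No paired analysis was possible because there is a single library of each tissue and no label links brain to spinal cord of an animal. Depth limits genes at few UMIs most: in the lowest of 4 equal classes by level (under 1.36 CPM), 10.7% were lower and 7.99% higher, against 3.95% and 2.16% in the highest.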

Other observations

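Several groups outside the comparisons above held isolated differences, to be read against 6.4% higher and 6.24% lower over all genes. Of 14 cytotoxic genes 2 were lower in spinal cord at day 14, Gzmk (26.7 against 56.5 CPM, -1.28) and Gzmb (32.8 against 57.9 CPM, -1.02), and Tnfsf10, which encodes TRAIL, was higher at 55.4 against 32.0 CPM (0.59). Of 10 Tfh genes 4 were lower, led by Izumo1r, which encodes folate receptor 4 (14.8 against 34.2 CPM, -1.40), and 2 were higher, Bcl6 (0.60) and Angptl2 (0.65). Of 14 genes of TGF-beta signalling the receptor gene Tgfbr1 was higher (14.5 against 7.47 CPM, 0.76; not called when centred by gene span) and the corepressor gene Tgif1 lower (24.5 against 50.1 CPM, -1.23), shares near the 6.4% and 6.24% of all genes. Fgl2, which encodes a fibrinogen-like protein, stood at 45.5 against 17.9 CPM (1.15). Ahnak, a very large scaffold protein gene, stood at 347 against 189 CPM (0.68, not called when centred by gene span).

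Stress genes did not move as a group. Of 16 heat shock and chaperone genes 2 were lower, Hspa1a (-1.19) and Hspa1b (-0.70, not called without centring), near-identical copies with 118 to 219 and 108 to 142 UMIs, and Hsph1 was higher (43.4 against 23.4 CPM, 0.69). Among 18 genes of the unfolded protein and integrated stress response, Atf4 (-0.78), Ddit3 (-0.69), Dnajb9 (-0.67) and Herpud1 (-0.61) were lower and Xbp1 (84.4 against 43.6 CPM, 0.75) was higher; without centring 0 of these 4 were called lower. Of 61 clustered histone genes 18 were lower and 3 higher (12 and 6 without centring), against 6.24% lower and 6.4% higher over all genes. Hist1h2bc stood at 7.67 against 40.3 CPM (-2.59), while Hist1h1e was higher. Some lower members had few UMIs, such as Hist1h2bk with 9 in spinal cord and 37 in brain. Of 13 BCL2 family genes 1 was lower, Bbc3, which encodes the death inducer PUMA (47.2 against 79.0 CPM, -0.94), a share near the 6.24% of all genes.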
